A study of Mus musculus with 6 samples.

Results

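The genes of the hypertrophy and fetal program described here are *Nppa*, *Nppb*, *Myh6*, *Myh7*, *Acta1*, *Actc1*, *Ankrd1*, *Rcan1*, *Gata4* and *Mef2c*. Their probes were all those, other than controls, whose gene name on the array is exactly one of these symbols, which gave 11 probes for 10 genes (*Myh6* has 2) among 55681 probes, which carry 36163 different names. RNA came from the hearts of male C57BL/6 mice. From 4 weeks of age they ate standard chow, the normal diet (ND), or a high fat diet (HFD) in which fat gave 60% of the kcal, and hearts were taken 4 months later, with 3 hearts on each diet and 1 Agilent array in 1 colour per heart. The sources used here name no genotype for these 6 mice beyond the strain, do not say whether whole hearts or pieces were taken, and number the hearts 1 to 3 within a diet. All 11 probes were well above background on all 6 arrays, no spot was saturated, and the accession of each probe matched its symbol in RefSeq. In RNA from whole tissue, fewer cells of a type and less RNA per cell cannot be told apart.

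The fetal gene program is a set of genes that the developing ventricle uses, that are turned down after birth and that loaded or failing hearts can use again. In the mouse it covers the natriuretic peptides ANP (*Nppa*) and BNP (*Nppb*), a shift from the fast adult myosin heavy chain α (*Myh6*) toward the slow fetal chain β (*Myh7*), and skeletal α-actin (*Acta1*) beside cardiac α-actin (*Actc1*). *Ankrd1* encodes a stretch-responsive nuclear cofactor bound to titin, *Rcan1* an inhibitor of calcineurin that is itself a calcineurin target, and *Gata4* and *Mef2c* transcription factors that drive many of these genes.

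Levels are log2 intensities relative to the 75th percentile of the array, so that 1 unit is a doubling, and levels of different probes are not set against each other. HFD was compared with ND in limma over 27585 probes, those that all arrays of a diet or of both read well above background, with Benjamini-Hochberg adjustment over all of them. No member passed an adjusted p of 0.05, a limit that 4 probes passed on the array (0.0145%). At an unadjusted p below 0.05, the limit given in the methods, 1 of the 11 member probes was higher in HFD (*Gata4*; 5.24% of all probes tested) and 1 was lower (*Acta1*; 6.63% of all), where 11.9% of all probes tested had such a p in either direction. The same pair of genes were the ones whose diets did not overlap, *Gata4* with every HFD heart above every ND heart (7.92% of all probes tested) and *Acta1* with every HFD heart below (11.1%). The median log2 fold change of the 11 probes was -0.03, beside -0.01 for all probes tested, and their median absolute change was 0.10, beside 0.11. Both medians lay close to those of the whole array, and 5 of the 11 probes were higher in HFD, beside 48.0% of all probes tested. The smallest adjusted p among them was 0.155 for *Acta1*.

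**Figure D1:**
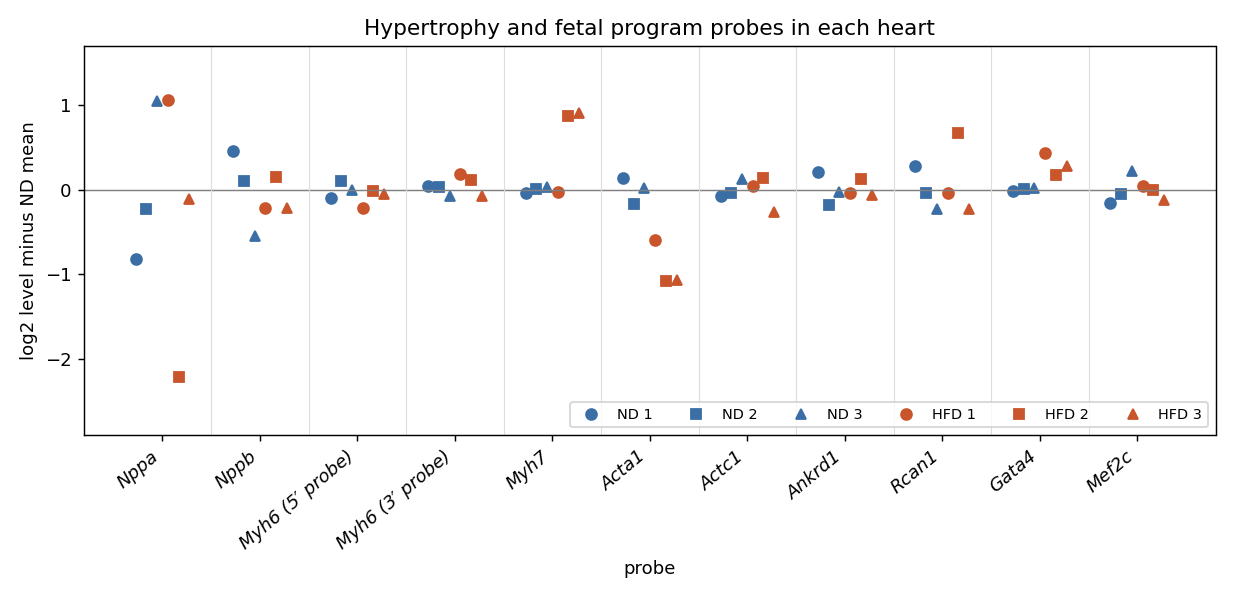
Log2 level of each probe in each heart minus the mean of the 3 ND hearts (y axis), with the 11 probes along the x axis, ND hearts in blue, HFD hearts in orange and 1 symbol per heart number. The HFD points of *Acta1* all lie below and those of *Gata4* all above the ND points, *Myh7* is high in HFD 2 and HFD 3 only, and *Nppa* spreads widely on both diets.

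The probes that carry these differences are shown by the first 30 of their 60 bases, 5′ to 3′, with no part capitalised.
Acta1: acatcgacatcaggaaggacctgtacgcca
Gata4: tagcttcgaaccaagattctgttgtaatca
Myh7: atgaggagtagctcttgtgctacccagctc
Unnamed probe next to Myh7: agcctttgcaacagccctttaggtggaagc
Nppa: cttcctgccttcatctatcacgatcgatgt
In the mm9 coordinates of the files, the *Acta1* probe lies at chr8:126416197-126416256 (minus strand), the *Gata4* probe at chr14:63817858-63817917 (minus), the *Myh7* probe at chr14:55589581-55589640 (minus) and the *Nppa* probe at chr4:147376024-147376083 (plus). Exon and untranslated boundaries were not analysed here. No pair of the probes of these 10 genes shared a run of more than 9 bases.

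*Acta1*, skeletal α-actin, is the isoform that adult mouse hearts keep at a low share and that pressure load classically raises. Its levels were 6.75, 6.44 and 6.63 in ND 1, ND 2 and ND 3. They were 6.01, 5.52 and 5.54 in HFD 1, HFD 2 and HFD 3. All 3 HFD hearts lay below the lowest ND heart, so the diets did not overlap. The log2 fold change was -0.92 (SE 0.16, 95% interval -1.31 to -0.53, limma adjusted p = 0.155), which puts the HFD hearts at 53.0% of ND. The mean was 6.61 ± 0.16 in ND and 5.69 ± 0.27 in HFD (SD, n = 3 each). Over 18 other settings of the processing the log2 fold change stayed between -1.08 and -0.83 with an unadjusted p below 0.05 in 18 of 18, while the adjusted p ran from 0.0718 to 0.529. HFD 1 and HFD 2 lay on row 1 of the slide and the other 4 arrays on row 2. With the slide row as a term, which leaves HFD 3 against the ND hearts of the same row, it was -1.07 (adjusted p = 0.417). Of 9 skeletal muscle markers 4 were tested and 3 of these were lower in HFD (median log2 fold change -0.43, 1 at an unadjusted p below 0.05). Over the 6 hearts their mean level had an r of 0.747 with *Acta1* and of -0.80 with *Myh7*, so it did not follow *Acta1* in particular. Mylpf was well above background on 0 arrays, Myh1, Myh4 and Actn3 on 1 each and Myh2 on 2, and the summed linear level of those tested was 36.9 to 42.9 in ND and 25.9 to 76.6 in HFD. Their part in the *Acta1* values was not tested. Actin genes share much of their coding sequence, and cross-hybridisation between them was not tested.

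*Actc1*, cardiac α-actin, the main actin of the adult heart muscle cell, had levels of 9.44, 9.47 and 9.64 in the ND hearts. Its levels were 9.55, 9.65 and 9.25 in HFD 1, HFD 2 and HFD 3. HFD 3 was the lowest and HFD 2 the highest of the 6 hearts, so the diets overlapped completely. On the log2 scale HFD minus ND was -0.03 (SE 0.13, 95% interval -0.34 to 0.28, adjusted p = 0.943). The interval of the cardiac actin does not reach that of the skeletal actin, whose upper bound was -0.53, but the difference between the actins was not itself tested.

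The RefSeq promoters of the actins are shown because the diets overlapped for *Actc1* and not for *Acta1*. Each run is the 250 bases before the start site (GRCm38.p6, minus strand), at chr8:123894776-123895025 for *Acta1* and chr2:114052876-114053125 for *Actc1*, and the capitals mark CArG boxes, the motif of serum response factor, and the letters CATTCC of the M-CAT element of the TEAD factors, searched on both strands.
Acta1: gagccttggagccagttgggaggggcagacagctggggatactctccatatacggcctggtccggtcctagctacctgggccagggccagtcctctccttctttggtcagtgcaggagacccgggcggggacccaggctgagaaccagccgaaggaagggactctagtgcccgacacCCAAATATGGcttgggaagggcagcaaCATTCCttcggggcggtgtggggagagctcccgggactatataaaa
Actc1: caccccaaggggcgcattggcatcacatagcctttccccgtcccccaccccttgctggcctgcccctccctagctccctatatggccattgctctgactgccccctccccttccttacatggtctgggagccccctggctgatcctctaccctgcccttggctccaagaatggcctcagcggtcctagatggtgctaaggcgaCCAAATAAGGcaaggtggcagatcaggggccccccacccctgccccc
Both windows held 1 CArG box, found in 1.47% of the 32851 RefSeq promoter windows of this length. CATTCC stood once in the *Acta1* window and not in that of *Actc1*, and 12.6% of all windows hold it. The same letters also stood in at least 1 window each of *Nppb*, *Mef2c*, *Myh6*, *Myh7* and *Ankrd1*, so they do not set *Acta1* apart among the members. The matches are descriptions of these letters and not of binding.

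*Myh7*, the β myosin heavy chain, was uneven among the HFD hearts. Its levels were 5.04, 5.08 and 5.10 in the ND hearts, a span narrower than that of any other member but *Gata4*. They were 5.04, 5.94 and 5.98 in HFD 1, HFD 2 and HFD 3. HFD 2 and HFD 3 stood clear of all ND hearts, and HFD 1 lay within the ND range. Between the diets the log2 fold change was 0.58 (SE 0.26, 95% interval -0.05 to 1.20, adjusted p = 0.457), or 1.49-fold. It was 0.88 without HFD 1 (adjusted p = 0.138), 0.42 without HFD 3 (adjusted p = 0.666) and with the slide row as a term 0.90 (adjusted p = 0.641), so single HFD hearts set its size.

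A second probe lies on the same stretch of chromosome 14. It has no gene name on the array (A_55_P2093231) and lies at chr14:55589521-55589580 on the minus strand, with 0 bases between it and the *Myh7* probe. It was found among the probes most like *Myh7* over the 6 hearts, so its likeness (Pearson's r 0.993) is a description. Its intensities were 20007, 20014 and 21787 in the ND hearts. They were 20784, 34454 and 45904 in HFD 1, HFD 2 and HFD 3. In intensity, HFD 1 lay among the ND hearts and the other HFD hearts above all of them. The log2 fold change was 0.58 (SE 0.28, adjusted p = 0.490). Since the probe was picked by its likeness, this pattern and fold change are not a separate reading of *Myh7*.

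*Myh6*, the α myosin heavy chain, is next to *Myh7* on chromosome 14 and has 2 probes. The probe near the 5′ end of the transcript (chr14:55584132-55584191, minus) had levels of 4.54, 4.73 and 4.64 with ND and 4.41, 4.62 and 4.58 with HFD. The probe near the 3′ end (chr14:55560774-55560833, minus) had levels of 9.33, 9.32 and 9.21 with ND and 9.48, 9.41 and 9.22 with HFD. Diets overlapped on both probes, and the probes pointed opposite ways by small amounts. Its log2 fold change was -0.10 (95% interval -0.32 to 0.12, adjusted p = 0.726) at the 5′ probe and 0.08 (95% interval -0.15 to 0.30, adjusted p = 0.787) at the 3′ probe. The α chain dominates the mouse ventricle, and the lower ends of the intervals were 0.801 and 0.903 of the ND level.

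The index of an isoform shift is *Myh7* minus *Myh6* within a heart, which does not depend on the scaling of the array. Relative to the ND mean, this difference (log2, with the brighter *Myh6* probe) was -0.08, -0.03 and 0.11 in the ND hearts. It was -0.22, 0.75 and 0.97 in HFD 1, HFD 2 and HFD 3. HFD 1 lay below the ND hearts and the other HFD hearts above them. The HFD hearts averaged 0.50 ± 0.63 (SD, n = 3) above ND, with an exact permutation p of 0.4 (two-sided, smallest p possible 0.1), and with the other *Myh6* probe the difference was 0.68. Without HFD 1 it was 0.86 and without HFD 3 it was 0.26.

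**Figure D2:**
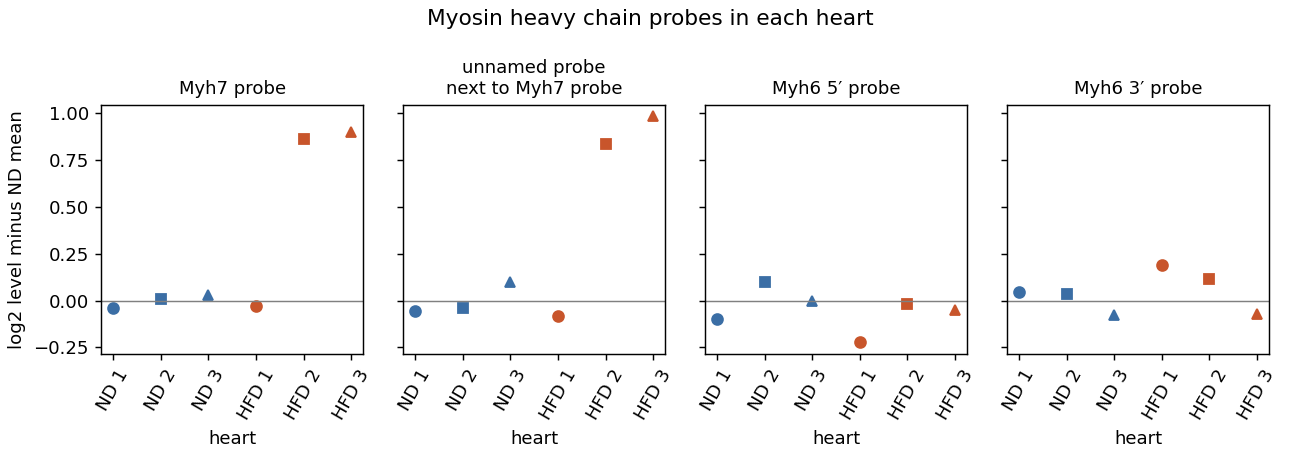
Log2 level minus the ND mean (y axis) in each heart (x axis) for the *Myh7* probe, the unnamed probe beside it and the 2 *Myh6* probes, on 1 common scale. The *Myh7* probe lies above all ND hearts in HFD 2 and HFD 3 and not in HFD 1. So does the unnamed probe, which was picked by its likeness to it. Both diets overlap on the *Myh6* probes.

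*Myh7* and *Acta1* were the members most opposed over the 6 hearts (Pearson's r -0.88, n = 6, a description over hearts that share the diet contrast). The named genes most like *Myh7* included *Lipe*, the hormone-sensitive lipase (r 0.986), and those most like *Acta1* were *Gm1673* (0.980), *Ano4* (0.977) and *Il18bp* (0.977), each among 5140 other genes with an SD over the hearts of at least 0.25. For *Lipe* Spearman's rho with *Myh7* was 0.657, so the order of the hearts was shared less closely.

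*Nppa*, the atrial natriuretic peptide, is made at high level in atrial muscle at all ages and in the ventricle before birth and under load. Its probe is spotted 10 times on each array. The levels were 6.98, 7.58 and 8.86 in the ND hearts. They were 8.87, 5.59 and 7.69 in HFD 1, HFD 2 and HFD 3. The highest and the lowest heart of all were both HFD hearts, and the ND hearts filled most of the range between them. The log2 fold change was -0.42 (SE 0.90, 95% interval -2.63 to 1.79, adjusted p = 0.894), an interval that holds a change of 3.45-fold upward. Leaving out HFD 2 gave 0.47, leaving out ND 3 gave 0.10 and leaving out HFD 1 gave -1.16, so the direction turned with single hearts.

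The spread of *Nppa* was between hearts and not between spots. The SD of the log2 intensity over the spots of 1 array was 0.03 to 0.10, against 1.35 between hearts of a diet, which is larger than for 99.8% of all probes tested (median 0.14). Its level followed a list of atrial muscle genes, which was tested for 7 of 9 genes and holds no member. The mean level of that list was 2.01, 2.83 and 3.73 in the ND hearts and 4.19, -0.06 and 3.52 in HFD 1, HFD 2 and HFD 3. The heart lowest in atrial genes, HFD 2, was also the lowest in *Nppa*, and Pearson's r over the 6 hearts was 0.963 (a description, n = 6). Summed linear levels of the list were 80.3 to 539 in ND and 13.5 to 720 in HFD, with the atrial genes Sln, Myl7 and Myl4 leading the spread, while Bmp10 was well above background on 1 array. Dkk3 spread likewise, from -0.29 in HFD 2 to 5.03 in HFD 1. Gja5 ran only from -0.39 in HFD 2 to 0.56 in HFD 1, and Kcnj3 from -1.12 in ND 1 to -0.20 in HFD 1. Kcna5 went the other way, highest in HFD 2 (1.80) and lowest in ND 3 (0.99). With the atrial list as a covariate the log2 fold change of *Nppa* was -0.19 (adjusted p = 0.772). The part of the atrial tissue in the *Nppa* values was not otherwise tested. The named genes most like *Nppa* over the hearts were *Scd1* (r 0.992), a fatty acid desaturase, and *Olfml3* (0.990).

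*Nppb*, the brain natriuretic peptide, the usual plasma marker of ventricular wall stress, is the neighbour of *Nppa* on chromosome 4 (probe at chr4:147360489-147360548, plus), with 15475 bases between their probes. Its levels were 6.53, 6.18 and 5.52 with ND. With HFD they were 5.86, 6.22 and 5.86. All HFD hearts lay within the ND range. On the log2 scale HFD minus ND was -0.10 (SE 0.27, 95% interval -0.75 to 0.56, adjusted p = 0.921). Its order over the hearts was not that of its neighbour (r -0.72 with *Nppa*, n = 6), and the named genes most like it were *Osmr* (r 0.981), the receptor of oncostatin M, and *Adig* (0.967).

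**Figure D3:**
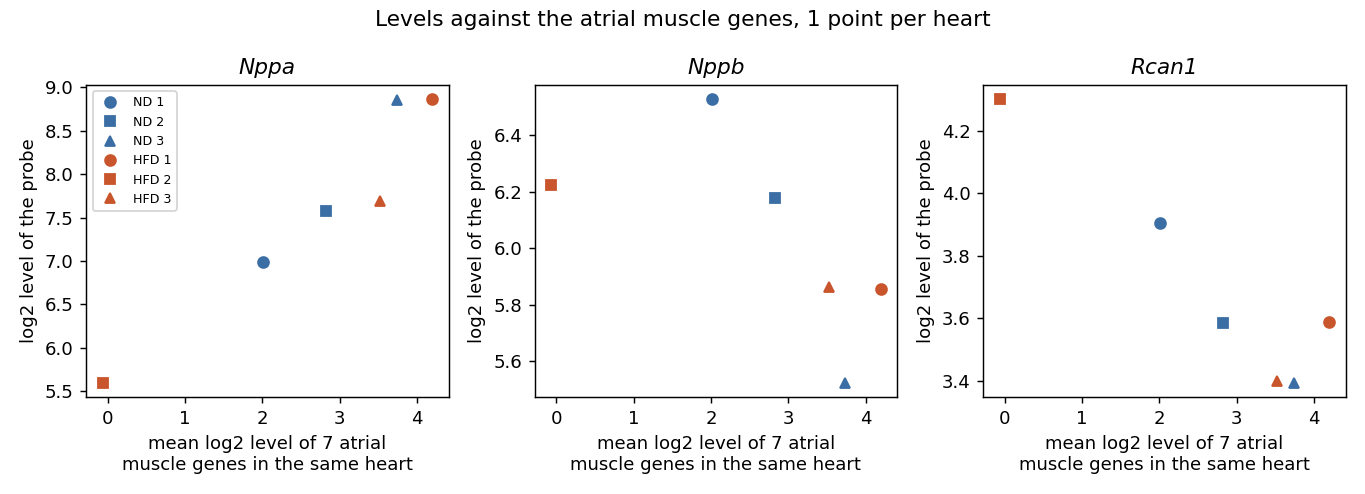
Log2 level of *Nppa*, *Nppb* and *Rcan1* (y axes, each on its own scale) against the mean log2 level of 7 atrial muscle genes in the same heart (x axis), with ND hearts in blue and HFD hearts in orange. *Nppa* climbs with the atrial genes from HFD 2 to HFD 1 and *Rcan1* runs the other way, without a separation of the diets.

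The promoters of both natriuretic peptide genes are shown with the GATA letters in capitals, since both genes are textbook targets of the protein of *Gata4*, whose diets did not overlap. Each run is the 250 bases before the start site (GRCm38.p6, plus strand), at chr4:148000472-148000721 for *Nppa* and chr4:147985650-147985899 for *Nppb*, and the motifs searched on both strands were TGATAA and AGATAA.
Nppa: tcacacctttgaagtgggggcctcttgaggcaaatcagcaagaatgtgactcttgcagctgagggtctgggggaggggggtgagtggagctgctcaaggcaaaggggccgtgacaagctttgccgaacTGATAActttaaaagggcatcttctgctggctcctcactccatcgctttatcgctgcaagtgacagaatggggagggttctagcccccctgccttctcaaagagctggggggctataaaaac
Nppb: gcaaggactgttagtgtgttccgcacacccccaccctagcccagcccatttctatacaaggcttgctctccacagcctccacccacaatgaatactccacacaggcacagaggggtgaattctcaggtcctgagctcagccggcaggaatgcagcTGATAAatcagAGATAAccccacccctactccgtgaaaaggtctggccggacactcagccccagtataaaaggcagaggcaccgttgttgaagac
TGATAA stood once in each window and is in 7.94% of all RefSeq windows of this length, and AGATAA stood once in that of *Nppb* and is in 9.99%. Of the 10 genes, 9 had a promoter entry. The levels of both genes overlapped between the diets, as given above.

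*Gata4*, a zinc finger factor of heart muscle and its precursors, had levels of 3.31, 3.34 and 3.34 in the ND hearts. It had levels of 3.76, 3.51 and 3.61 in HFD 1, HFD 2 and HFD 3. All HFD hearts lay above the ND hearts, HFD 2 by the least. Between the diets the log2 fold change was 0.29 (SE 0.08, 95% interval 0.09 to 0.50, adjusted p = 0.300), a 1.23-fold difference, with means of 3.33 ± 0.02 in ND and 3.62 ± 0.13 in HFD (SD, n = 3 each). It lay between 0.23 and 0.35 over 18 other settings, with an unadjusted p below 0.05 in 17 of them. With the slide row as a term it was 0.27 (adjusted p = 0.721), which was the exception.

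*Mef2c*, a MADS box factor of muscle, was read by a probe whose mm9 coordinates span 2238 bases (chr13:83772788-83775025, plus), more than its own 60, as a probe across a splice junction would. Its levels were -1.38, -1.27 and -0.996 with ND. With HFD they were -1.17, -1.22 and -1.34. The diets overlapped, with a log2 fold change of -0.03 (95% interval -0.32 to 0.25, adjusted p = 0.941).

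*Ankrd1*, the cardiac ankyrin repeat protein, had levels of 7.28, 6.90 and 7.05 with ND and 7.03, 7.20 and 7.02 with HFD (chr19:36186809-36186868, minus). The HFD hearts lay inside the ND range. Its log2 fold change was 0.01 (95% interval -0.28 to 0.30, adjusted p = 0.987), so that the interval ends at 1.23-fold upward. *Gm5833* (r 0.985) and *Efna2* (0.975) were the named genes most like it over the hearts.

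*Rcan1* (chr16:92392763-92392822, minus) had levels of 3.91, 3.59 and 3.39 with ND and 3.59, 4.30 and 3.40 with HFD. It was read by 1 probe, so its transcripts were not told apart. HFD 2 was the highest heart and the other HFD hearts lay within the ND range. The log2 fold change was 0.13 (SE 0.26, 95% interval -0.51 to 0.77, adjusted p = 0.881). *Rcan1* ran against the atrial genes (r -0.936) and against *Nppa* (r -0.87) over the 6 hearts. The genes most like it were *3830403N18Rik* (r 0.986), the co-chaperone *Dnajb4* (0.981) and *Nrarp* (0.978).

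**Figure D4:**
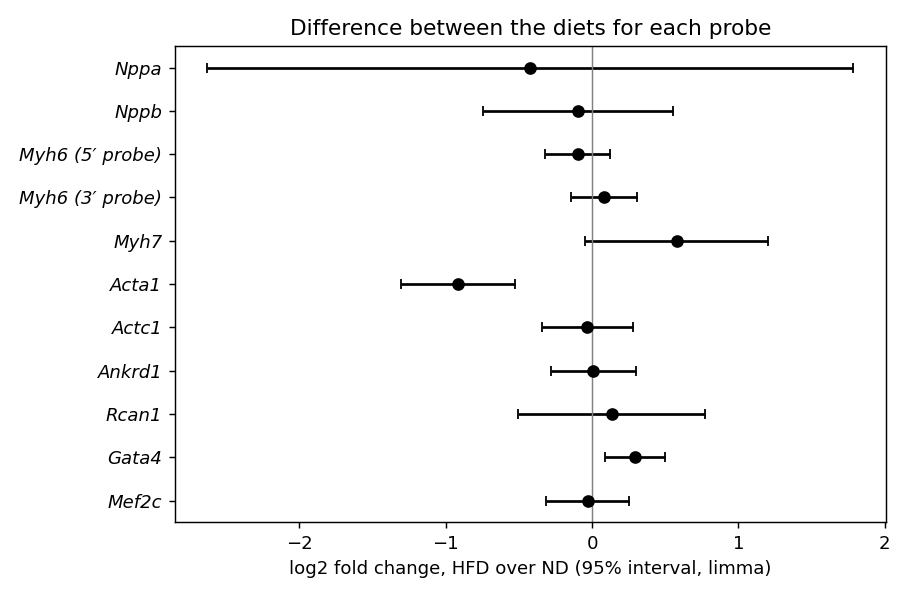
Log2 fold change of HFD over ND for each of the 11 probes (x axis) with its 95% interval from limma, 1 probe per line. Only the intervals of *Acta1* and *Gata4* leave out 0, the interval of *Nppa* is the widest, and none passes the adjustment over all probes.

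Genes that work with the members were taken from 7 lists with 1 probe per gene, of which 73 of 78 genes were tested. None passed an adjusted p of 0.05, and at an unadjusted p below 0.05 there were 4 higher and 11 lower in HFD, where the shares of all probes were the 5.24% and 6.63% given above. The median over the 73 genes was -0.05 on the log2 scale. In direction, 31 were higher and 42 lower in HFD, where 48.0% of all probes tested were higher.

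Of 5 tested genes that process or bind natriuretic peptides, 3 were higher in HFD and 1 passed the unadjusted limit. That was *Mme*, neprilysin, the protease that degrades these peptides, with levels of -2.19, -2.33 and -2.51 with ND and -1.66, -1.50 and -1.66 with HFD. The diets did not overlap, and its log2 fold change was 0.73 (SE 0.10, adjusted p = 0.121). The *Mme* probe was dim, with mean intensities of 95.8 in ND and 165 in HFD.

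Of 13 sarcomere isoform genes 12 had a lower mean in HFD (median log2 fold change -0.13), and 1 passed the unadjusted limit. *Tnnc1*, the slow and cardiac troponin C, was lower by 0.35 on the log2 scale (log2 fold change -0.35, adjusted p = 0.260) without overlap. The largest change was that of the atrial light chain *Myl7* (-0.81, SE 2.17, adjusted p = 0.918), whose hearts spread from -1.43 in HFD 2 to 6.48 in HFD 1. A list of 8 general cardiac muscle genes had 7 lower and a median of -0.12, with none at the unadjusted limit. It is not a separate reading, since *Tnnt2*, *Tnni3*, *Mybpc3* and *Ttn* are in both lists.

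Among 13 calcineurin and NFAT genes, the side of the pathway that *Rcan1* reports on, 2 were lower at the unadjusted limit and 0 higher. These were the catalytic subunit *Ppp3cc* (-0.29, adjusted p = 0.269) and *Myoz2*, calsarcin 1, which holds calcineurin at the Z disc (-0.24, adjusted p = 0.330). Among 10 genes of the MEF2 family and class II histone deacetylases, which restrain MEF2, 2 were higher (*Hdac9* 0.49, adjusted p = 0.412, and the kinase *Camk2g* 0.23, adjusted p = 0.408). In the same list 3 were lower, *Mef2a* (-0.32, adjusted p = 0.231), *Hdac7* (-0.30, adjusted p = 0.240) and protein kinase D *Prkd1* (-0.35, adjusted p = 0.354).

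Of 10 tested cardiac transcription factors 8 were higher (median 0.17), but 0 of those passed the unadjusted limit and the largest was *Hand2* (0.31, adjusted p = 0.730). *Tead1*, whose protein binds M-CAT elements, was lower without overlap (-0.28, SE 0.10, adjusted p = 0.354). The diets also did not overlap for *Tbx20* (0.26), *Zfpm2* (0.21) and *Srf*, the serum response factor (0.19), which were higher. Over all probes tested, 7.92% lay above and 11.1% below without overlap.

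The ankyrin repeat and stretch response list, which holds relatives and partners of *Ankrd1*, had 8 of 10 genes lower and 3 at the unadjusted limit. *Ankrd2*, the skeletal muscle relative of *Ankrd1*, had levels of -1.64, -2.56 and -2.57 with ND and -3.28, -3.35 and -3.59 with HFD, and its log2 fold change came to -1.15 (SE 0.27, adjusted p = 0.248). Its probe was dim, with mean intensities of 106 in ND and 47.6 in HFD, and ND 1 stood above the other ND hearts. *Myot*, the Z disc protein myotilin, had levels of 4.96, 4.93 and 4.58 with ND and 3.44, 4.13 and 4.13 with HFD, and differed by -0.92 on the log2 scale (SE 0.22, adjusted p = 0.252). Neither gene overlapped between the diets, and *Hspb7*, a small heat shock protein of heart muscle, was likewise lower (-0.25, adjusted p = 0.262). Among 12 tested growth signals of hypertrophy, the α1B adrenergic receptor *Adra1b* was higher (0.43, adjusted p = 0.213) and the kinase *Akt1* lower (-0.32, adjusted p = 0.248).

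**Figure D5:**
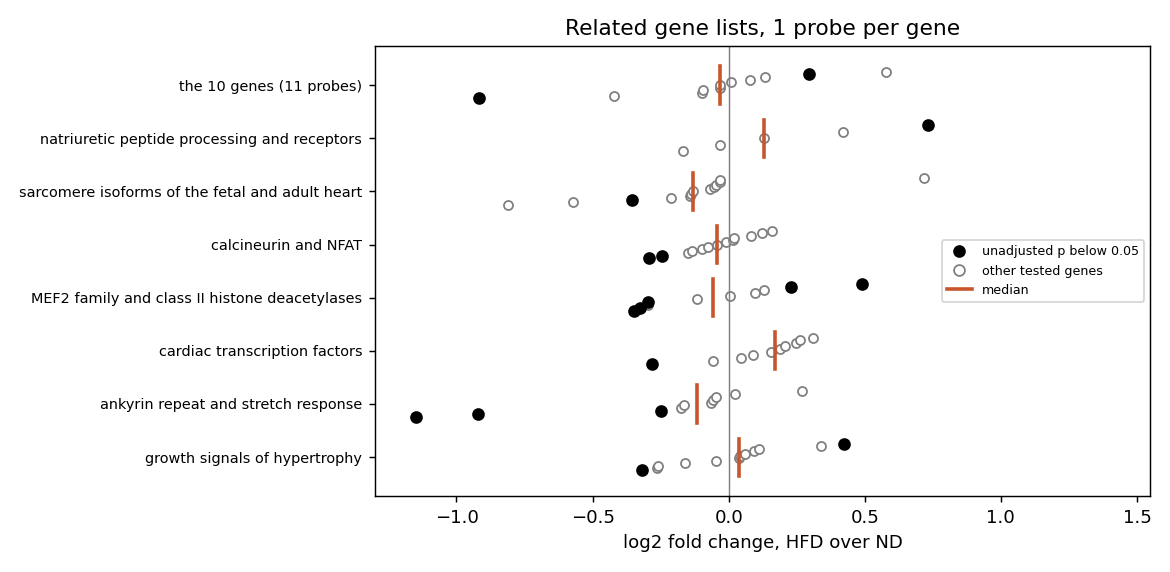
Log2 fold change of HFD over ND (x axis) for the member probes and for the genes of 7 related lists (rows), with black points for an unadjusted p below 0.05, open points for the other tested genes and a bar at the median of each row. Black points lie mostly left of 0, led by *Ankrd2*, *Myot* and *Acta1*, and *Mme* is the farthest to the right.

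Other cell markers were read in the same hearts. Smooth muscle genes were higher for 4 of 4 (median log2 fold change 0.43, summed level 65.8 to 88.3 in ND and 69.2 to 211 in HFD), with none at the unadjusted limit and HFD 1 the highest. Red blood cell genes were lower for 5 of 5 (median -0.64). Of these, 4 passed the unadjusted limit (6.63% of all probes tested) and 5 did not overlap between the diets (11.1% of all). Immediate early genes were higher for 16 of 16 tested (median 0.85, 10 of them at an unadjusted p below 0.05, beside 5.24% of all probes tested). Over the 6 hearts their mean level had an r of 0.744 with *Gata4* and -0.77 with *Acta1*, a description over hearts that share the diet contrast. The 3′ *Myh6* probe, whose diets overlapped, had an r of 0.784 with the same list, and *Gata4* had one of 0.737 with the smooth muscle genes. Median log2 fold changes were -0.05 for ventricular muscle, 0.08 for fibroblast, 0.02 for endothelial, -0.17 for macrophage and -0.58 for adipocyte genes. For the adipocyte genes the mean level was lowest in HFD 2 (-4.05) and highest in HFD 1 (-0.21). The ND hearts (-1.82, -1.01 and -0.83) and HFD 3 (-1.46) lay between them, so the diets overlapped. The part of these lists in the values of *Acta1* and *Gata4* was not tested.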

How the data were processed

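The hearts were read on 6 Agilent arrays in 1 colour. The authors' Feature Extraction software, version 10.7.1.1 per the file headers, subtracted the background within each array, and the deposited intensity values are linear and not normalized between arrays. Here control spots and spots with an outlier flag were left out, spots of a probe were averaged as log2 and the 75th percentile of the array over all spots other than controls (453 to 544) was subtracted. The share of probes well above background ran from 49.2% to 53.0%, and precision is limited by the 3 hearts of each diet. The log2 values that the authors also deposited are of the same arrays (Spearman's rho with its own array of 1, at most 0.954 with another). The column medians of those values were 4.56, and they differed from a quantile normalization of the log2 intensities by a median of at most 0.00188, so scale and order are known. They were used only as an alternative. Probe positions are on mm9, and names are those of the array design.

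The diets were compared in R 4.3.3 by two-sided tests of limma 3.58.1 (lmFit, then eBayes) with Benjamini-Hochberg adjustment. A probe was tested if all arrays of one diet or both had it well above background and each diet had at least 2 measured values. Other tools were version 1.17.8 of data.table, jsonlite 2.0.0 and statmod 1.5.0, and for sequences and figures Python 3.11.15, pandas 2.3.3 and matplotlib 3.10.9. No arrays held identical values. Where the labels do not say that hearts were handled apart, p-values measure the spread between these samples. All 6 arrays lay on 1 slide. Code was tested on simulated data. Promoter sequences are from RefSeq (GRCm38.p6).

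The separate result of 1 list gene is not reported here. The members and the lists were chosen with earlier results of these data known. Named were all member probes, list genes at an unadjusted p below 0.05, the gene of each list with the largest change and, of the 3 genes most like each of 6 members, those with a gene symbol (probes named by a locus were left out, except the one beside the *Myh7* probe). Of the cardiac transcription factors, those whose diets did not overlap were named too. Alternatives were quantile normalization, normexp with an offset of 50, no filter or a stricter filter on dim probes, the authors' values, array weights, the methods' t-test, robust variances with an intensity trend, the slide row, a block on the replicate number, the atrial list as a covariate, outlier spots kept and each heart left out.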

Additional observations from a re-analysis of the deposited data

How the results depend on the processing

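Over 18 other settings, 0 member probes passed the adjusted limit in every one, and 2 or 3 passed the unadjusted limit (3 where *Myh7* joined, in 6 settings). With the slide row as a term *Myh7* stood in for *Gata4*, and the *Myh7* minus *Myh6* difference was 0.973 rather than 0.50. Leaving out each heart in turn gave 0.263 to 0.861 for that difference, 11 to 17 probes of the related lists at the unadjusted limit (15 with all hearts) and 2 to 3 member probes. The labels do not say whether equal replicate numbers mark hearts handled together. Between hearts of equal number the r of the deviations was -0.16, 0.18 and 0.25, which cannot decide this with 3 hearts of each diet. With the replicate block, 3 member probes and 14 list probes passed the unadjusted limit, 0 probes of the whole array passed the adjusted limit (4 without it), and the *Myh7* minus *Myh6* difference was 0.50. The numbers of probes adjusted as different over the whole array ranged from 0 to 81 over the settings. The signs of *Nppa*, *Nppb*, the 3′ *Myh6* probe, *Actc1*, *Ankrd1*, *Rcan1* and *Mef2c*, none of them at the unadjusted limit, turned in at least 1 setting. All member probes were well above background on all 6 arrays, so brightness did not limit their detection.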
